A study of Mus musculus with 6 samples.

Results

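The sirtuin family consists of the 7 genes *Sirt1* to *Sirt7*, which were found by gene symbol among the 37979 genes of a deposited expression table. The rule names the genes and uses no measured value, but the family was taken up with earlier results of these data known. RNA-seq was carried out on gastrocnemius (GAS) muscles of 3 wildtype (WT) and 3 Kvβ2 knockout (KO) mice, with 1 library per mouse. The KO mice are Kvβ2-/- and lack the gene *Kcnab2* in the whole body, and the WT mice are age-matched animals obtained by interbreeding hemizygous Kvβ2+/- null mice. The study used male mice per its methods, its text on the RNA-seq gives an age of 20 weeks, and per the labels neither genotype received a treatment. No strain background or Cre driver is named in the sources used here. In whole-body knockouts, effects within the muscle and effects from other tissues cannot be told apart. The libraries are numbered 1, 7 and 8 in each genotype. *Kcnab2* was listed at 0, 0.0151 and 0 FPKM (fragments scaled to the length of the transcript and to the mapped fragments of the library) in KO 1, KO 7 and KO 8, against 0.233, 0.10001 and 0.110 FPKM in WT 1, WT 7 and WT 8. All WT libraries were above all KO libraries, at a level under the limit of 0.5 FPKM set for testing.

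Sirtuins are enzymes that remove acetyl and other acyl groups from lysines of proteins and consume NAD+ in the reaction, so that their activity is tied to the redox and energy state of the cell. SIRT1, SIRT6 and SIRT7 reside mainly in the nucleus, SIRT2 mainly in the cytosol, and SIRT3, SIRT4 and SIRT5 in mitochondria, where they act on enzymes of fuel oxidation that are abundant in muscle. The Kvβ2 protein is a channel subunit of the aldo-keto reductase superfamily and binds pyridine nucleotides. The comparison of KO with WT asks how the transcripts of this NAD+-dependent family stood in muscle lacking that subunit.

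Promoters of the family differed in the short motifs they hold, and 3 stretches are shown. They were picked after the measured differences were seen, at whose opposite ends lay *Sirt1* on the one hand and *Sirt6* and *Sirt7* on the other. RefSeq promoters on GRCm38.p6 cover 250 bases before to 50 bases after each annotated start. All 7 genes matched, with 9 entries among 32851 promoters. *Sirt3* and *Sirt6* have an additional entry each, and a member was counted when any of its entries held a motif. The percentages are over entries. Of 9 motifs searched on both strands, the E-box CACGTG was found in *Sirt1* alone of the family and in 7.15% of all promoters. The core GCATGCGC of the motif of NRF1, a factor known for genes of mitochondrial function, was found in *Sirt6* and *Sirt7* and in 2.71% of all promoters. The stretches below are written on the strand of each gene, capitals mark the matches, and positions are counted from the start of transcription. The *Sirt1* stretch lies at chr10:63339053-63339170 on the minus strand, from -135 to -18. The *Sirt6* stretch lies at chr10:81627690-81627719 on the minus strand, from -153 to -124, and overlaps an annotated exon of a *Sirt6* transcript that starts further upstream. The *Sirt7* stretch lies at chr11:120625020-120625049 on the minus strand, from -35 to -6, and also overlaps an annotated exon of its own gene.
Sirt1 promoter: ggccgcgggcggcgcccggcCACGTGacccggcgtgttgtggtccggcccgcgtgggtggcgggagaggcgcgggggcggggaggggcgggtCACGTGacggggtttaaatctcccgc
Sirt6 promoter: catcaggaggGCGCATGCGCtctggaaaga
Sirt7 promoter: gggccgggcccGCGCATGCgtctctgtagc

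*Sirt1* carries the E-box at 2 positions, -115 and -43, in a promoter with a GC content of 79.0% and 47 CpG dinucleotides, against medians of 52.7% and 7 over all promoters. In *Sirt6* the NRF1 core occurs on both strands as overlapping matches, and in *Sirt7* on the opposite strand. The ETS motif CCGGAAGT was found in *Sirt3* and *Sirt6* and in 3.89% of all promoters. The GC box GGGCGG was present in 6 of 7 members, all but *Sirt4*, and in 35.7% of all promoters. The CCAAT box was present in *Sirt2*, *Sirt3* and *Sirt5*, and in 37.4% of all promoters. The cAMP response element TGACGTCA, found in 1.79% of all promoters, the ERR element TCAAGGTCA, found in 0.423%, the FOXO element TGTTTAC, found in 3.65%, and the TATA box TATAAA, found in 13.6%, were not found in the windows of the family. No motif matched in *Sirt3* or *Sirt6* was found in both entries of the gene. A match is a string of letters and no measure of binding.

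All 7 sirtuins were detected in every library and had a mean of at least 0.5 FPKM, the filter passed by 12334 genes. *Sirt2* was the most abundant and *Sirt6* the least abundant member in both genotypes. On log2(FPKM + 0.1), 6 members had a higher mean in KO than in WT muscle, of which *Sirt4* turned under rescaling of the FPKM to a common sum, a step that moved the median of all tested genes to -0.16, and *Sirt1* had a lower one. None of the 7 differed at an adjusted p under 0.05 in limma, with Benjamini-Hochberg adjustment over all tested genes, a rule passed by 0.324% of those genes (31 higher and 9 lower). Array weights, an alternative in which WT 7 had a weight of 6.12 and the others 0.355 to 1.97, called 4 members (*Sirt2*, *Sirt3*, *Sirt6* and *Sirt7*) among 1863 genes that were higher and 1284 that were lower. At an unadjusted p under 0.05, *Sirt2*, *Sirt3*, *Sirt6* and *Sirt7* were higher in KO, 4 of 7 members, beside 15.3% of all tested genes, and *Sirt1* was lower, 1 of 7 members, beside 10.9% of all tested genes. The 3 KO values lay entirely above the 3 WT values in *Sirt2*, *Sirt6* and *Sirt7*, as they did in 18.3% of all tested genes, and entirely below them in *Sirt1*, as they did in 16.2%. With 3 libraries against 3, a two-sided exact permutation test cannot give a p below 0.1. After correction for GC content, described further below, no member passed an unadjusted p of 0.05 in either direction, beside 5.33% of tested genes that were higher and 5.4% that were lower. The median log2 fold change of the 7 members was 0.40, against 0.010 over all tested genes, and 0.18 against -0.0036 after the correction.

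**Figure D1:**
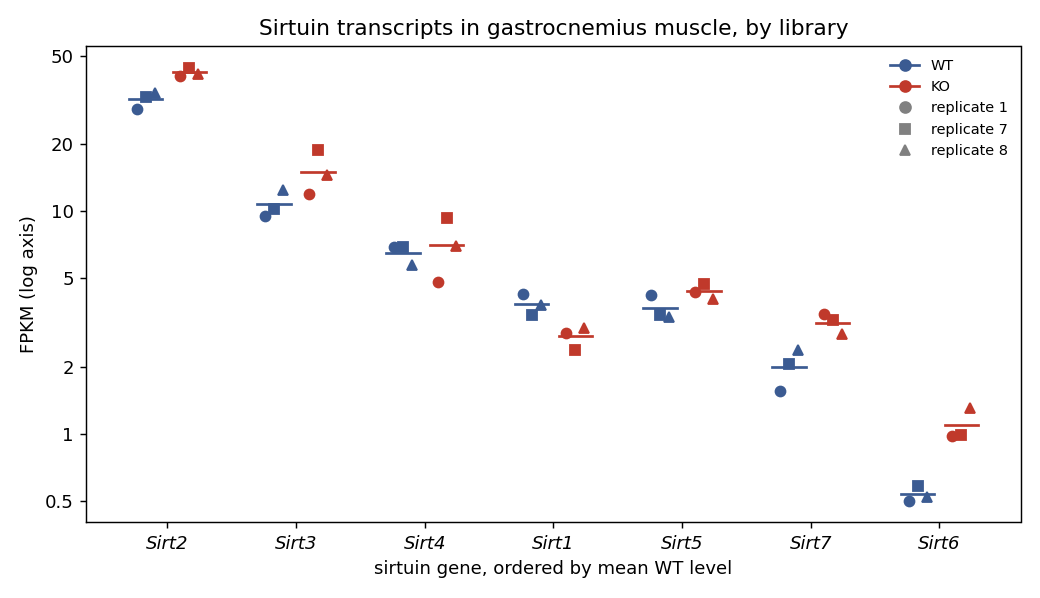
FPKM on a log axis of each sirtuin gene in 3 WT (blue) and 3 KO (red) libraries of GAS muscle, with symbols for the replicate number and a line at the mean of each genotype. The KO points lie above the WT points without overlap in Sirt2, Sirt6 and Sirt7, below them in Sirt1, and overlap with them in Sirt3, Sirt4 and Sirt5.

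Among the nuclear members, *Sirt1* (ENSMUSG00000020063, chr10:63319005-63381704, minus strand) encodes the deacetylase of p53, FOXO factors and the coactivator PGC-1α, and is the member most studied in muscle energy metabolism. It measured 4.24, 3.40 and 3.80 FPKM in WT 1, WT 7 and WT 8 and 2.83, 2.38 and 2.998 FPKM in KO 1, KO 7 and KO 8. Every KO library was below every WT library, and replicate 7 was the lowest of each genotype. The mean was 3.81 ± 0.421 FPKM in WT and 2.74 ± 0.319 FPKM in KO (SD, n = 3). The log2 fold change of KO against WT was -0.47 ± 0.15 (SE; 95% interval -0.82 to -0.12), or 0.724 times the WT level, with an adjusted p of 0.120 by limma. The log2 fold change of *Sirt1* was negative under each of the alternative settings run. Its gene span, introns included, overlaps that of the antisense gene *Gm16145* over 13035 bases. The exons of *Sirt1* cover 5331 bases, and the overlap of exons was not computed. The libraries were made with a stranded kit, but whether strand was used in quantification is not given in the sources used here, so fragments of overlapping genes on opposite strands may not have been told apart.

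*Sirt6* (ENSMUSG00000034748, chr10:81621785-81627797, minus strand), whose product is a chromatin-bound histone deacetylase that acts in DNA repair and in restraint of glycolytic genes, had the largest fold change of the family. The WT libraries gave 0.50004, 0.580 and 0.519 FPKM, and the KO libraries gave 0.971, 0.985 and 1.31 FPKM, in the order 1, 7 and 8. The lowest KO value was thus above the highest WT value, and KO 8 stood highest. The means were 0.533 ± 0.0421 and 1.09 ± 0.190 FPKM (SD, n = 3), and the log2 fold change was 0.90 ± 0.25 (SE; 95% interval 0.31 to 1.49), or 1.86-fold, with an adjusted p of 0.0981 by limma. *Sirt6* is also the member with the least data behind it. From the depth estimated for each library, its FPKM correspond to about 19 to 22 fragments in the WT and 26 to 39 in the KO libraries on the longest coding transcript, so that counting error alone is large. These are estimates that assume that transcript. With a pseudocount of 1 in place of 0.1, the log2 fold change of *Sirt6* was 0.44, under the 0.48 of *Sirt7*.

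*Sirt7* (ENSMUSG00000025138, chr11:120618372-120625240, minus strand) encodes the nucleolar member, which is known for its part in transcription of ribosomal RNA genes. It was at 1.55, 2.06 and 2.37 FPKM in WT 1, WT 7 and WT 8, and at 3.43, 3.23 and 2.79 FPKM in the KO libraries in the same order. The genotypes did not overlap, but the WT values covered a log2 range of 0.61, the widest WT range of the family, and WT 8 lay close to KO 8. The log2 fold change was 0.65 ± 0.19 (SE; 95% interval 0.21 to 1.09), or 1.57-fold, with a mean that went from 1.99 ± 0.411 FPKM in WT to 3.15 ± 0.329 FPKM in KO (SD, n = 3). *Sirt7* overlaps *Mafg* on the same strand over 124 bases, where fragments can be shared if exons overlap. As deposited, the 3 nuclear members therefore did not stand in 1 direction. *Sirt1* was lower in every KO library than in any WT library, and *Sirt6* and *Sirt7* were higher. After correction for GC content, described further below, the genotypes overlapped in all 3, and each 95% interval included 0.

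*Sirt2* (ENSMUSG00000015149, chr7:28766735-28788661, plus strand) encodes the cytosolic member, a deacetylase of tubulin and of metabolic enzymes. WT 1, WT 7 and WT 8 had 28.8, 32.4 and 33.99 FPKM, and KO 1, KO 7 and KO 8 had 40.4, 44.2 and 41.4 FPKM. The genotypes did not overlap, and the coefficient of variation of 4.68% among the KO libraries was the lowest of any member in either genotype. The mean was 31.8 ± 2.65 FPKM in WT and 42.0 ± 1.97 FPKM in KO (SD, n = 3). *Sirt2* had the smallest standard error of the family, with a log2 fold change of 0.40 ± 0.11 (SE; 95% interval 0.15 to 0.65), or 1.32-fold, and an adjusted p of 0.0905 by limma. The gene overlaps *Nfkbib* on the opposite strand over 778 bases.

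Among the mitochondrial members, *Sirt3* (ENSMUSG00000025486, chr7:140863666-140882309, minus strand) encodes the main deacetylase of the mitochondrial matrix. It measured 9.52, 10.2 and 12.4 FPKM in the WT libraries and 11.97, 18.7 and 14.5 FPKM in the KO libraries, in the order 1, 7 and 8. KO 1 lay below WT 8, so the genotypes overlapped, and KO 7 was the highest of the 6. The log2 fold change was 0.47 ± 0.19 (SE; 95% interval 0.040 to 0.91), with an adjusted p of 0.165 by limma. *Sirt3* was past an unadjusted p of 0.05 in 2 of the 6 fits that each left out 1 library, with log2 fold changes from 0.30 to 0.63. The gene overlaps *Ric8a* and *Psmd13* on the opposite strand.

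*Sirt4* (ENSMUSG00000029524, chr5:115478010-115484725, minus strand) encodes a matrix protein known to inhibit glutamate dehydrogenase. WT 1, WT 7 and WT 8 were at 6.92, 6.88 and 5.70 FPKM, while KO 1, KO 7 and KO 8 were at 4.82, 9.33 and 6.99 FPKM. The KO libraries thus held both the lowest and the highest value, with a coefficient of variation of 32.0% against 10.6% in WT. The log2 fold change of 0.071 ± 0.23 (SE; 95% interval -0.47 to 0.61) had an interval on both sides of 0, and it was -0.15 without KO 7.

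*Sirt5* (ENSMUSG00000054021, chr13:43365496-43395203, plus strand), whose product removes succinyl and malonyl groups from matrix enzymes, had 4.20, 3.43 and 3.34 FPKM in WT and 4.34, 4.72 and 4.04 FPKM in KO, in the order 1, 7 and 8. WT 1 lay above KO 8, so the genotypes overlapped. The log2 fold change was 0.25 ± 0.14 (SE; 95% interval -0.074 to 0.58), with an adjusted p of 0.284 by limma. Of the mitochondrial members, KO 7 had the highest value of the 6 libraries in all 3, whereas among the other members it was highest in *Sirt2* alone.

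**Figure D2:**
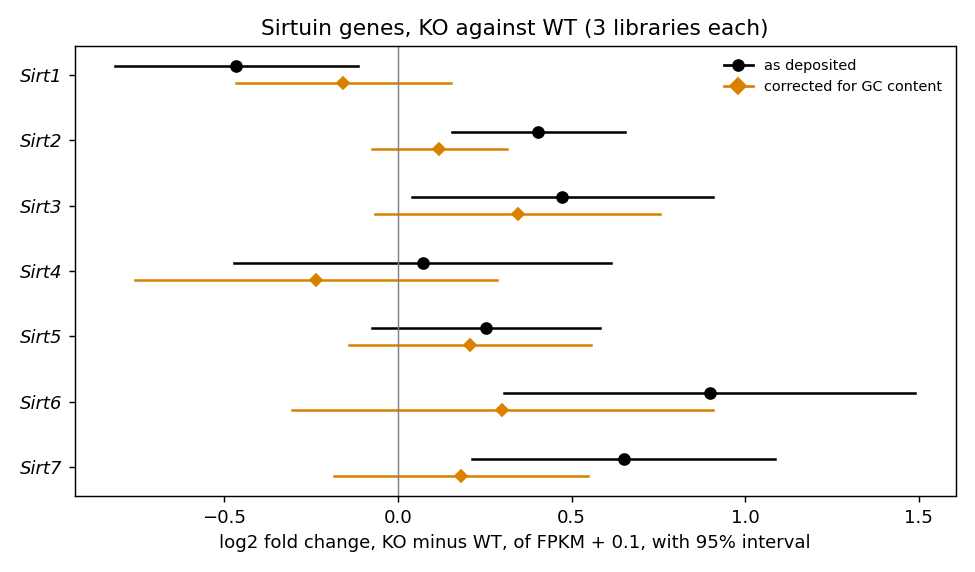
Log2 fold change of KO against WT of each sirtuin gene on FPKM + 0.1, with the 95% interval from limma, for the deposited values (black circles) and after correction of each library for GC content (orange diamonds). As deposited, the intervals of Sirt1, Sirt2, Sirt3, Sirt6 and Sirt7 leave out 0, and after the correction all 7 include 0.

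On FPKM, which are scaled to transcript length, the order of the levels was *Sirt2*, *Sirt3*, *Sirt4*, *Sirt1*, *Sirt5*, *Sirt7* and *Sirt6* in WT, from the highest mean to the lowest. Other differences between genes, such as in GC content, may also bear on this order. *Sirt1* and *Sirt5* overlapped in WT, where *Sirt1* was above *Sirt5* in 2 of 3 libraries. The other neighbors in the WT order did not overlap. In KO the order was *Sirt2*, *Sirt3*, *Sirt4*, *Sirt5*, *Sirt7*, *Sirt1* and *Sirt6*, so *Sirt1* moved from the fourth place to the sixth in the deposited values. *Sirt7* and *Sirt1* overlapped in KO, with *Sirt7* above *Sirt1* in 2 of 3 libraries. After correction for GC content, described further below, *Sirt1* was at 1.660, 1.542 and 1.753 (log2) in KO 1, KO 7 and KO 8. *Sirt7* was then at 1.665, 1.399 and 1.323, so *Sirt1* stood above it in KO 7 and KO 8, as in every WT library. *Sirt5* was above *Sirt1* in WT 1 and WT 7 after the correction. The correction acts on the deviation of each library from the mean of a gene. An effect of GC content that all libraries share would stay in place.

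As a share of the summed FPKM of the 7 genes, *Sirt1* made up 7.60, 5.76 and 6.12% in WT 1, WT 7 and WT 8 and 4.12, 2.85 and 4.05% in the KO libraries in the same order. *Sirt6* made up 0.897, 0.984 and 0.835% in WT and 1.41, 1.18 and 1.77% in KO. These are the 2 members whose shares did not overlap between the genotypes, the one lower and the other higher in KO. They are also the members with the lowest and the highest GC content, 42.0% and 59.6%. Their own values overlapped after correction for GC content. The shares were not computed after the correction, and they have no counterpart over all genes. *Sirt2* held most of the sum, with 53.8 ± 1.82% in WT and 55.8 ± 2.94% in KO (SD, n = 3). The sum itself was 55.8, 59.0 and 62.1 FPKM in WT and 68.7, 83.6 and 74.0 FPKM in KO, 1.28 times higher on average.

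Ratios between members within a library do not depend on how the library was scaled. Of the 21 pairs of members, 8 had ratios that did not overlap between the genotypes, beside 30.9% of all pairs of tested genes above 0 in every library, and *Sirt1* or *Sirt6* took part in each of the 8. *Sirt1* exceeded *Sirt6* by a ratio of 7.22 in WT and 2.54 in KO (means of the ratios within libraries), a log2 difference of -1.50. *Sirt1* to *Sirt7* was 1.996 in WT and 0.879 in KO. The larger of the pair was *Sirt1* in every WT library and in KO 8 (log2 ratio 0.10), and *Sirt7* in KO 1 and KO 7. This pair overlapped between the genotypes after correction for GC content (log2 difference -0.34). The ratio of *Sirt1* to *Sirt3* was 0.362 in WT and 0.190 in KO, and that of *Sirt1* to *Sirt2* was 0.121 and 0.0655. After correction for GC content 5 of the 21 pairs did not overlap, beside 17.3% of all pairs of tested genes. They were *Sirt1* with *Sirt6* (log2 difference -0.46), *Sirt3* (-0.50) and *Sirt2* (-0.28), and *Sirt4* with *Sirt3* and *Sirt5*. *Sirt3* to *Sirt4* was at 0.58, the largest of the 5, and *Sirt4* to *Sirt5* at -0.44, and both pairs overlapped as deposited.

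**Figure D3:**
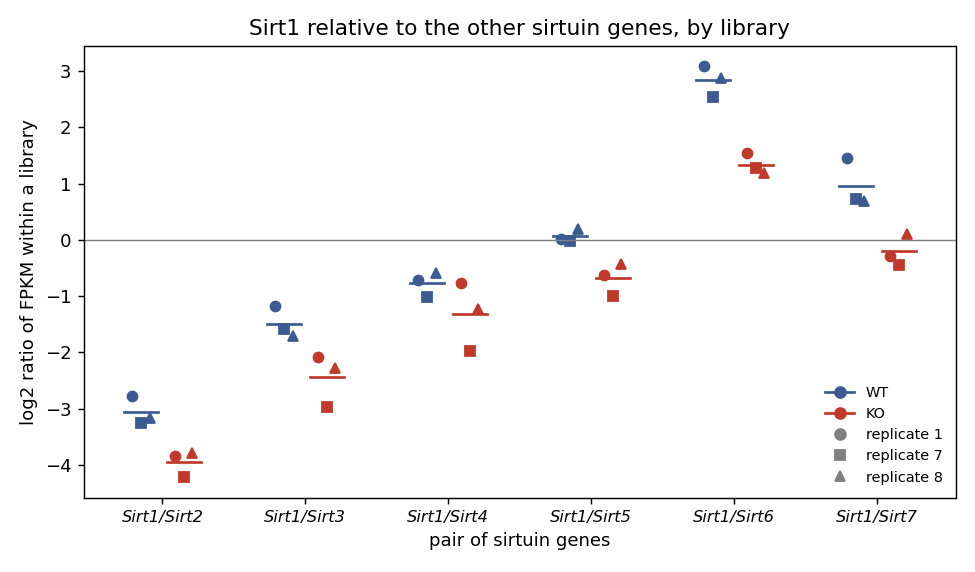
Log2 ratio of the FPKM of Sirt1 to that of each other sirtuin gene within each library, for 3 WT (blue) and 3 KO (red) libraries, with a line at the mean of each genotype and symbols for the replicate number. The KO ratios lie below the WT ratios without overlap for all partners except Sirt4.

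The GC content of the transcripts moved with these differences. Over all tested genes with a known GC content (97.2%), Spearman's rho between the log2 fold change and GC content was 0.70, computed across genes that share the same 6 libraries. The median log2 fold change was -0.41 for genes with a GC content under 40% and 0.68 for genes at 60% or more. Within the family the rho was 0.75 (n = 7), given as a description. *Sirt1*, the member with the lowest GC content, 42.0%, was the one lower in KO, and *Sirt6*, with the highest, 59.6%, had the largest positive fold change. *Sirt7* (57.1%) came second in both.

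Set beside genes of like GC content, *Sirt2* (54.4%), *Sirt4* (54.8%) and *Sirt7* lay between the quartiles of their band. *Sirt1*, at -0.47, lay below the lower quartile of -0.42 of genes at 40 to 44%, whose median was -0.30. *Sirt6*, at 0.90, lay above the upper quartile of 0.72 of genes at 56 to 60%, whose median was 0.51. *Sirt3* (52.2%), at 0.47, was just above the upper quartile of 0.43 of genes at 52 to 56%, and *Sirt5* (51.0%), at 0.25, was above that of 0.16 of genes at 48 to 52%. Whether GC content acts through the preparation of the libraries or through the genes themselves was not tested.

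When the trend on GC content was subtracted from each library, the log2 fold changes (SE) became -0.16 (0.13) for *Sirt1*, 0.30 (0.26) for *Sirt6* and 0.18 (0.16) for *Sirt7*. *Sirt2* was at 0.12 (0.083), *Sirt3* at 0.35 (0.18), *Sirt4* at -0.24 (0.22) and *Sirt5* at 0.21 (0.15). *Sirt2* was then the 1 member of 7 whose genotypes did not overlap, beside 17.5% of all tested genes with a known GC content. *Sirt3* lost the least of the 4 members that were higher at an unadjusted p under 0.05, and had the largest corrected value. The correction reversed the direction of *Sirt4* and of no other member.

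**Figure D4:**
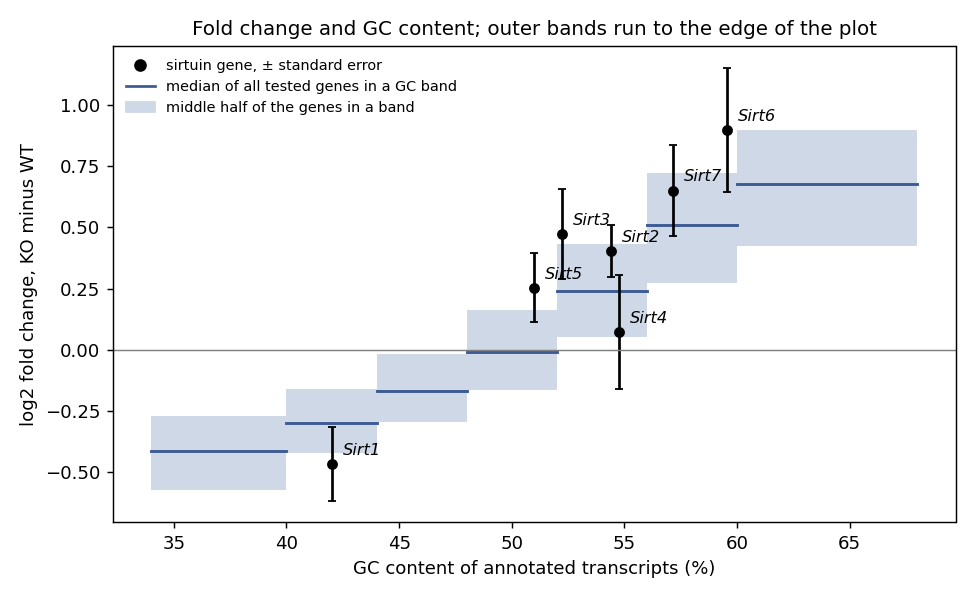
Log2 fold change of KO against WT against the GC content (%) of annotated transcripts, for the 7 sirtuin genes (points, with the standard error) and for all tested genes in bands of GC content (blue line, median; shaded box, lower to upper quartile). Sirt2, Sirt4 and Sirt7 lie within the box of their band, Sirt3, Sirt5 and Sirt6 above it and Sirt1 below it.

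Markers of other cells were examined because whole muscle was sequenced. In bulk tissue, fewer cells of a type and less RNA per cell cannot be told apart. Skeletal muscle markers (7 of 7 detected) summed to between 47985 and 70001 FPKM in WT and between 65155 and 75615 FPKM in KO. Adipocyte markers (4 of 4 tested) summed to 3.43 to 17.03 FPKM in WT and 16.5 to 78.5 FPKM in KO, with the maximum in KO 7. Of these, 3 were higher in KO at an unadjusted p under 0.05, also after the correction for GC content. Of all tested genes 15.3% were higher at that limit, and 5.33% after the correction. As deposited, 2 of 7 skeletal muscle, 2 of 5 erythroid, 1 of 4 fibroblast and 1 of 4 endothelial markers were also higher. In addition, 1 endothelial marker was lower, beside 10.9% of all tested genes. Among these other lists, 1 erythroid marker was left after the correction. Schwann cell markers, like adipocyte markers, were highest in KO 7, at 82.8 FPKM, against 12.1 to 59.6 FPKM in WT. The sums of cardiac muscle (9.98 FPKM), endothelial (43.6 FPKM) and leukocyte markers (10.9 FPKM) were also highest in KO 7. KO 7 is the library with the highest *Sirt3*, *Sirt4* and *Sirt5*, and the part of these cells in those values was not tested. Without KO 7, the log2 fold change was 0.30 for *Sirt3*, -0.15 for *Sirt4* and 0.20 for *Sirt5*. The other 4 members were past an unadjusted p of 0.05 in 6 of 6 fits that each left out 1 library. Their log2 fold changes were from -0.54 to -0.37 for *Sirt1*, 0.34 to 0.46 for *Sirt2*, 0.77 to 0.97 for *Sirt6* and 0.49 to 0.78 for *Sirt7*. All fits that left out 1 library were run without the GC correction. With the correction and all libraries, none of the 4 members passed that limit. Sums of the other markers, WT first, ranged from 1.92 to 5.85 and 2.61 to 9.98 FPKM for cardiac muscle, 32.7 to 34.6 and 33.0 to 43.6 for endothelium, 2.34 to 7.08 and 5.12 to 10.9 for leukocytes, 369 to 527 and 351 to 445 for fibroblasts, and 242 to 314 and 266 to 547 for erythroid cells. Estimated depth was 19800000 to 20600000 fragments in WT and 14200000 to 19170000 in KO. These estimates did not overlap, but KO 7 at 19170000 was close to WT 1 at 19800000, and their error was not computed. Depth and genotype cannot be told apart here.

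Genes around the sirtuins in NAD+ metabolism showed no common direction. The counts that follow, at an unadjusted p under 0.05, stand beside 15.3% of all tested genes that were higher and 10.9% that were lower. After the GC correction these shares were 5.33% and 5.4%. Of 9 genes of NAD synthesis, 7 were tested, 0 were higher and 1 was lower at an unadjusted p under 0.05. The median log2 fold change was 0.041, or -0.026 after the GC correction. The lower one was *Nmrk1*, a nicotinamide riboside kinase, which the table lists as *BC016495*. Its log2 fold change was -0.33 ± 0.12 (SE), and -0.16 after the GC correction. Of 9 other NAD-consuming enzymes, 7 were tested, with 1 higher, 2 lower and a median of -0.21. After the GC correction 0 were higher and 1 was lower, with a median of -0.020. *Cd38*, which encodes a major NAD+ glycohydrolase, measured 3.25, 2.67 and 2.59 FPKM in WT 1, WT 7 and WT 8 and 2.06, 1.30 and 1.69 FPKM in the KO libraries. The genotypes did not overlap, and the log2 fold change of *Cd38* was -0.74 ± 0.20 (SE), with an adjusted p of 0.0944 by limma, and -0.47 after the GC correction, again without overlap. The ADP-ribosyltransferase gene *Parp3* was at 0.45 ± 0.14 and the tankyrase gene *Tnks2* at -0.29 ± 0.12 (log2 fold change, SE), and after the correction they were at 0.14 and -0.020.

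Of 4 sirtuin regulators, 0 passed an unadjusted p of 0.05 as deposited, with a median log2 fold change of 0.19, or -0.0017 after the GC correction. *Rps19bp1*, which encodes an activator of SIRT1 and was the most abundant of them, was at -0.072 as deposited and at -0.61 after the GC correction. It was then lower at an unadjusted p of 0.024 by limma, without overlap of the genotypes. Of 10 nuclear substrates of sirtuins, 2 were higher and 0 lower, with a median of 0.13, against 0 higher, 1 lower and 0.091 after the correction. The higher ones were *Rela*, a subunit of NF-κB, at 0.46 ± 0.14, and *Crtc2*, a coactivator of CREB, at 0.37 ± 0.14 (log2 fold change, SE), and after the correction they were at -0.10 and 0.022. Of 15 mitochondrial substrates, 1 was higher and 0 lower, with a median of 0.13, and after the correction the counts were the same, with a median of 0.11. *Hadha*, which encodes a subunit of the trifunctional protein of fatty acid oxidation, measured 104, 102 and 90.7 FPKM in WT and 106, 145 and 126 FPKM in KO. Its log2 fold change was 0.33 ± 0.14 (SE), and 0.41 after the correction. KO 7 was the highest library in 7 of these 15 genes, KO 8 in 4, WT 1 in 3, WT 8 in 1, and KO 1 and WT 7 in 0. The share of all tested genes that were highest in KO 7 was not computed, so these counts, and those of the sirtuins, are a description.

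Zinc-dependent histone deacetylases, the other class of lysine deacetylases, had 3 members that were higher and 1 that was lower of 11 tested, and a median log2 fold change of 0.32, or 0.042 after the GC correction. *Hdac5*, which encodes a repressor of MEF2-dependent muscle genes, was at 10.4, 12.7 and 10.3 FPKM in WT and 16.1, 17.2 and 21.0 FPKM in KO. Its values did not overlap, with a log2 fold change of 0.69 ± 0.14 (SE) and an adjusted p of 0.0708 by limma, and 0.072 after the correction. *Hdac2*, at 42.1% GC, was at -0.41 ± 0.16, and *Hdac1* and *Hdac10* were at 0.35 ± 0.13 and 0.33 ± 0.14 (log2 fold change, SE). After the correction *Hdac2* was at -0.11, *Hdac1* at 0.29 and *Hdac10*, whose direction turned, at -0.10, and 0 of the 11 were higher and 1 was lower at an unadjusted p under 0.05, *Hdac11*, named here after its values were seen. None of the genes of these 6 lists passed an adjusted p of 0.05 in limma.

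The genes whose profile over the 6 libraries was nearest to that of each sirtuin were found as the smallest root mean square difference of centered log2 values among all tested genes. For *Sirt2* the nearest was *Kat2a*, which encodes a histone acetyltransferase, at 0.0187. For *Sirt1* they were *Pigp* at 0.0424 and *Gm9781* at 0.0462, and for *Sirt7* they were *Gpx1*, a glutathione peroxidase gene, at 0.0501 and *Arid1b* at 0.0586. For the mitochondrial members they were *Mpv17l2* at 0.0333 and *Syk* at 0.0501 for *Sirt3*, *Oxct1*, which encodes an enzyme of ketone body use, at 0.0715 and *Ckmt2*, the mitochondrial creatine kinase gene, at 0.0887 for *Sirt4*, and *Ifitm3* at 0.0379 and *Klhl5* at 0.0494 for *Sirt5*. *Sirt6* was nearest to *Nipsnap3b* at 0.0647 and *Tbc1d17* at 0.0811. The gene ranked 100 was at 0.0766 for *Sirt2* and 0.194 for *Sirt6*. With 6 libraries such likeness is a description only.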

How the data were processed

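GAS muscle RNA from 3 WT and 3 KO mice, 1 library each, was sequenced. The authors mapped reads to GRCm38 with TopHat and deposited FPKM values computed with Cufflinks. Tool versions and the annotation release are not given in the sources used here. The members and lists were chosen, the members by symbol, with earlier results of these data known. Fits used limma 3.58.1 in R 4.3.3 with a variance trend on log2(FPKM + 0.1), over the 12334 genes averaging 0.5 FPKM or more, and p-values were adjusted by Benjamini and Hochberg. Scripts were tested on simulated data. Gene coordinates, GC content and overlaps came from GENCODE vM21, and overlaps are of whole gene spans. For GC correction, each library's deviation was fitted by loess (span 0.3) against GC content and subtracted. Depth was estimated from the steps of low FPKM, of which 92.0 to 96.6% were whole fragments within 0.15. Named were the members, *Kcnab2*, list genes at an unadjusted p under 0.05 or else the most abundant, and the 2 nearest profiles, of which 1 is not reported here. Genes with older symbols were matched by identifier. Replicate numbers were not used to pair the libraries in the main fit. Alternatives numbered 19.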

Additional observations from a re-analysis of the deposited data

How the results depend on the processing

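The 7 sirtuins gave 0 adjusted calls in limma in all settings run except with array weights, where *Sirt2*, *Sirt3*, *Sirt6* and *Sirt7* were called (4 genes; adjusted p 0.0138, 0.0296, 0.0170 and 0.0265). These weights gave WT 7 a weight of 6.12 and the other libraries 0.355 to 1.97, and called 1863 higher and 1284 lower genes, against 31 and 9. Counts over all genes were 7 higher and 4 lower with a pseudocount of 1, 9 higher without the filter, 12 higher without the variance trend, 10 higher after a length correction, and 1 higher and 0 lower among genes above 0 in every library. Rescaling to a common sum gave 7 higher genes, moved the median of all genes to -0.16, left 2 sirtuins higher at an unadjusted p under 0.05 and a sirtuin median of 0.23. The GC correction left 0 sirtuins higher and 0 lower at that limit, 1 without overlap and a median of 0.18, with 6 higher genes, or 5 with the replicate block in the same fit. With the replicate block alone, 6 genes were higher and the sirtuin counts stayed at 4 higher, 1 lower and 0 adjusted. Deviations of the same-numbered libraries from the means of their genotypes correlated at -0.025, -0.080 and 0.034. Those of the other pairs of KO and WT libraries correlated at -0.066 to 0.086. With 3 libraries per genotype, these values cannot settle whether libraries of the same number share anything else. *Sirt4* turned negative with rescaling (-0.11), array weights (-0.00094), GC correction (-0.24, also with the block) and length correction (-0.070). Leaving out 1 library gave 6 to 103 higher genes (103 without WT 8) and 6 to 23 lower genes, and from -0.15 to 0.32 for *Sirt4*, while 3 or 4 sirtuins were higher and 1 lower at an unadjusted p under 0.05. With a mean of at least 1 FPKM *Sirt6* was not tested. The causes of these shifts were not tested. Depth limits *Sirt6* and *Kcnab2* most, and intervals of the estimated fragments were not computed.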
